A study of Mus musculus with 6 samples.

Results

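The inflammasome and cGAS-STING genes examined here are 10 genes of innate immune signaling, *Nlrp3*, *Pycard*, *Casp1*, *Il1b*, *Il18*, *Sting1*, *Cgas*, *Tbk1*, *Irf3*, and *Ifnb1*. They were found on the array through the RefSeq accessions of its probes, where *Sting1* carries the older name *Tmem173* and *Cgas* the older name *Mb21d1*. They were measured by 13 probes, 8 of the genes by 1 probe each, and all 10 were among the 19011 genes tested, of 20659 genes named on the array. They were taken by name, with no threshold on their values. RNA came from interscapular brown adipose tissue (iBAT) of male C57BL/6 mice aged 16 weeks, with 3 control samples and 3 samples of *ob/ob* mice, which lack functional leptin and become obese. Every cell of the *ob/ob* animals carries the mutation, no treatment is given for either group, and the labels give the other genotype only as control. Each sample was hybridized to 1 single-dye Agilent array, and the values are background-corrected spot intensities on the log2 scale after quantile normalization between arrays. The labels do not say whether a sample is 1 mouse or a pool, so p values measure the spread between these samples, which may be technical.

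The NLRP3 inflammasome is a protein complex that forms in the cytosol when the sensor NLRP3 meets signs of cell damage, such as disturbed mitochondria. NLRP3 then gathers the adaptor ASC, encoded by *Pycard*, which recruits the protease caspase-1 to cut the precursors of IL-1β and IL-18 into their secreted forms. In the neighboring pathway, cGAS binds DNA in the cytosol, including DNA that leaks from mitochondria, and makes a cyclic dinucleotide that activates STING. STING engages the kinase TBK1, which phosphorylates the transcription factor IRF3, and IRF3 in turn drives *Ifnb1*, the gene of interferon β. Much of this control acts on proteins, by assembly, cleavage, or phosphorylation, which RNA levels do not measure. The study links both pathways to brown fat that lacks a mitochondrial antioxidant protein, and the arrays ask which RNAs differ in brown fat of an obese mouse.

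The arrays of control 3 and *ob/ob* 3 stood apart from the others of their label. By Spearman correlation over the 35448 probes tested, control 3 was closer to *ob/ob* 1 and 2 (0.915 and 0.944) than to control 1 and 2 (0.642 and 0.730). The array of *ob/ob* 3 was closer to control 1 and 2 (0.858 and 0.770) than to *ob/ob* 1 and 2 (0.573 and 0.488). The remaining arrays resembled their own label, at 0.964 for the first 2 controls and 0.967 for the first 2 *ob/ob* samples. The median log2 signal of the spike-in probes was 4.01 on *ob/ob* 3 and 6.19 to 7.10 on the other arrays, and the 75th percentile of the signal before normalization was lowest on control 3, at 94.5 against 134.2 to 291.8. Whether the samples of control 3 and *ob/ob* 3 were exchanged was not tested, and an exchange would change what every group difference here means. *Lep* (5.30 on control 3 and 9.33 on *ob/ob* 3) and the macrophage gene *Trem2* (5.37 and 8.53) were on the side of their labels. *Trem2* was named for a low p value between the labels, so its side follows in part from that choice. *Ucp1*, a brown fat gene with a lower mean in *ob/ob* samples, was on the other side (9.48 on control 3 and 10.03 on *ob/ob* 3). The labels were kept, and results are given with all 6 arrays and, as a description, without control 3 and *ob/ob* 3. The share of spots well above background was 83.5% to 89.9%, and no spot was saturated. *Lep*, the leptin gene, had a higher log2 signal on every *ob/ob* array (5.83 to 9.33) than on any control array (4.57 to 5.74), but the mutant gene is still transcribed, so this signal does not check the genotype. As a check of the tissue, the brown fat gene *Ucp1* and the adipocyte gene *Adipoq* were detected on all 6 arrays. RNA of a whole tissue cannot tell fewer cells of a type from less RNA per cell.

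The promoters of 4 of the genes are shown because these genes stand at the start or the end of the pathways. Their profiles over the arrays were not all unlike, since *Il1b* and *Irf3* were above their own means on the same arrays. Each sequence holds the 250 bases before the annotated start (RefSeq, GRCm38.p6), and capitals mark a kappa B core match, GGGA and TTCC with any 2 bases between, the kind of element to which NF-κB binds.
*Nlrp3*, chr11:59541319-59541568, plus strand: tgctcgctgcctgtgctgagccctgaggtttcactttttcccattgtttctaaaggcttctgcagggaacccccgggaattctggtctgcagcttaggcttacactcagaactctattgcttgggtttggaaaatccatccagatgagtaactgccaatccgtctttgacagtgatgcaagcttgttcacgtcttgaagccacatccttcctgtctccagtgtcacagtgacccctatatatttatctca
*Il1b*, chr2:129371140-129371389, minus strand: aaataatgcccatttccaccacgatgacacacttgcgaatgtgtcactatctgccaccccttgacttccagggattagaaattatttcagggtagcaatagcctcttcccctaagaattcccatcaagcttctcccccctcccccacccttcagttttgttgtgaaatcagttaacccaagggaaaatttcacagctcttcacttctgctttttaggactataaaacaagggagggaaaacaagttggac
*Irf3*, chr7:44997398-44997647, plus strand: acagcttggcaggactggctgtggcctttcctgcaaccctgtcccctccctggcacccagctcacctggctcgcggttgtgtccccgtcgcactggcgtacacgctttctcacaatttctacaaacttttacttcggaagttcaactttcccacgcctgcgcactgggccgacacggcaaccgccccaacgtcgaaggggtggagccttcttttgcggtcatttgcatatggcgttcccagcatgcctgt
*Ifnb1*, chr4:88522795-88523044, minus strand: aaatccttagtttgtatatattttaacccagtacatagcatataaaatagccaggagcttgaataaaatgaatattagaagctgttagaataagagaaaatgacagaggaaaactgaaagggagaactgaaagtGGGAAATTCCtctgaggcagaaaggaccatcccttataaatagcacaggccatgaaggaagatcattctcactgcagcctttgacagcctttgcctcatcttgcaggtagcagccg
The promoter of *Ifnb1* held 1 such match, from 116 to 107 bases before the start. Those of *Nlrp3*, *Il1b*, and *Irf3* held no match to this exact core. Looser forms of the kappa B site were not searched, so these promoters may still hold one. Over windows of 300 bases that reach past the start, searched on both strands, this core was found in 1 of 10 promoters of the 9 member genes with a promoter listed and in 1.47% of 32851 promoters. The core of the interferon-stimulated response element, GAAA and GAAA with any 2 bases between, was in 0 of the 10 and in 3.44% of all. The *Ifnb1* sequence above does hold GAAA and GAAA with 3 bases between, which this pattern does not count. A count of 0 therefore does not mean that a promoter lacks an element of this kind. The core of the interferon gamma activated site, TTC and GAA with any 3 bases between, was in 0 of the 10 and in 8.30% of all.

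*Nlrp3*, the sensor, was read by 2 probes that did not move together. On the brighter probe its log2 signal was 6.25, 5.89, and 6.70 on the control arrays and 7.28, 7.45, and 6.25 on the *ob/ob* arrays, in the order of their numbers, which is kept below. Thus, *ob/ob* 1 and 2 lay above all controls and *ob/ob* 3 lay among them. The mean was 6.28 ± 0.40 (SD, n = 3) in controls and 6.99 ± 0.65 (SD, n = 3) in *ob/ob* samples, a log2 difference of 0.71 ± 0.45 (SE, 95% interval −0.38 to 1.81). In limma it had an unadjusted p of 0.165 and an adjusted p of 1.0. On the dimmer probe the signal was 6.02, 5.81, and 6.23 in controls and 6.22, 6.03, and 5.25 in *ob/ob* samples, a log2 difference of −0.19 ± 0.38 (SE). The probes therefore differed in the sign of the difference, and their mean gave a log2 difference of 0.26. With each array left out in turn, the brighter probe had log2 differences from 0.48 (without *ob/ob* 2) to 1.09 (without *ob/ob* 3).

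*Pycard*, which encodes the adaptor ASC, had log2 signals of 7.39, 7.69, and 8.77 in controls and 8.39, 8.69, and 7.67 in *ob/ob* samples. The highest value of all was control 3, and *ob/ob* 3 was within the range of the controls. The log2 difference was 0.30 ± 0.50 (SE, 95% interval −0.91 to 1.5), and it was 0.015 without control 1. *Casp1*, the gene of caspase-1, ran otherwise, with 6.26, 6.20, and 5.30 in controls and 5.76, 5.23, and 8.26 in *ob/ob* samples. Here *ob/ob* 3 alone lay above the controls, and *ob/ob* 2 lay below them. The mean was 0.50 ± 0.83 (SE, 95% interval −1.52 to 2.51) log2 units higher in *ob/ob* samples, and the difference was −0.42 without *ob/ob* 3.

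*Il1b*, the gene of the inflammatory cytokine IL-1β, had the widest spread of the 10 genes. Its log2 signal was 8.87, 7.81, and 5.77 in controls and 6.12, 5.35, and 11.09 in *ob/ob* samples. The highest value and the lowest value were both in *ob/ob* samples, 5.74 log2 units apart. The means were nearly equal, 7.48 ± 1.57 (SD, n = 3) in controls and 7.52 ± 3.12 (SD, n = 3) in *ob/ob* samples, and the log2 difference of 0.04 had an SE of 1.63 and a 95% interval of −3.90 to 3.97. With *ob/ob* 3 left out, the difference was −1.75. *Il18*, whose product is the other cytokine cut by caspase-1, had log2 signals of 5.82, 5.65, and 4.94 in controls and 4.64, 4.58, and 6.90 in *ob/ob* samples. The order was like that of *Il1b* in that *ob/ob* 3 was highest and *ob/ob* 2 lowest. Its log2 difference was −0.10 ± 0.70 (SE, 95% interval −1.80 to 1.61), and with normexp background correction it was 0.0075.

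*Cgas*, the DNA sensor, was read by 3 probes. The brightest had log2 signals of 6.92, 6.77, and 7.75 in controls and 7.94, 8.19, and 7.04 in *ob/ob* samples. The values of *ob/ob* 1 and 2 were above all controls, control 3 followed, and *ob/ob* 3 was below control 3. The log2 difference was 0.57 ± 0.47 (SE, 95% interval −0.55 to 1.70), with an unadjusted p of 0.263 from limma. The other probes had log2 differences of 0.02 ± 0.45 and 0.15 ± 0.35 (SE), and the dimmest, at 4.18 to 4.88, was detected on 5 of 6 arrays. *Sting1*, the adaptor downstream of cGAS, had log2 signals of 8.18, 7.49, and 5.86 in controls and 5.84, 5.70, and 8.20 in *ob/ob* samples. The controls spanned 2.31 log2 units and the *ob/ob* samples 2.5, and the extremes of the groups were nearly equal. The log2 difference was −0.60 ± 0.89 (SE, 95% interval −2.75 to 1.56). It was −0.10 without control 1 and −1.40 without *ob/ob* 3.

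*Tbk1*, the kinase that phosphorylates IRF3, had log2 signals of 7.37, 7.09, and 8.94 in controls and 8.36, 8.27, and 6.64 in *ob/ob* samples. Control 3 was highest, *ob/ob* 3 lowest, and the log2 difference was −0.04 ± 0.70 (SE, 95% interval −1.73 to 1.65). *Irf3*, the transcription factor at the end of the cascade, had the largest mean difference of the 10 genes. Its log2 signals were 9.47, 9.41, and 6.57 in controls and 6.33, 6.14, and 8.19 in *ob/ob* samples. Control 1 and 2 lay above all *ob/ob* samples, but control 3 lay below *ob/ob* 3. The mean was 8.48 ± 1.66 (SD, n = 3) in controls and 6.89 ± 1.13 (SD, n = 3) in *ob/ob* samples, a log2 difference of −1.59 ± 0.97 (SE, 95% interval −3.93 to 0.74) with an unadjusted p of 0.147 and an adjusted p of 1.0 from limma. An exact permutation test gave p = 0.2 (two-sided), where 3 samples against 3 cannot go below 0.10. With each array left out in turn, the log2 difference ranged from −2.55 (without control 3) to −1.10 (without control 1).

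*Ifnb1*, the target of IRF3, was dim and steady. Its log2 signal was 4.69, 4.84, and 4.62 in controls and 4.86, 5.29, and 4.64 in *ob/ob* samples, and the probe was well above background on all 6 arrays. The highest value was in *ob/ob* 2, 0.66 above the lowest, and the log2 difference was 0.21 ± 0.33 (SE, 95% interval −0.58 to 1.0), which was −0.23 when arrays were scaled to their 75th percentile. Under that scaling the median of all genes was −0.31 in place of −0.09. Relative to that median, the difference of *Ifnb1* was positive under both scalings.

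**Figure D1:**
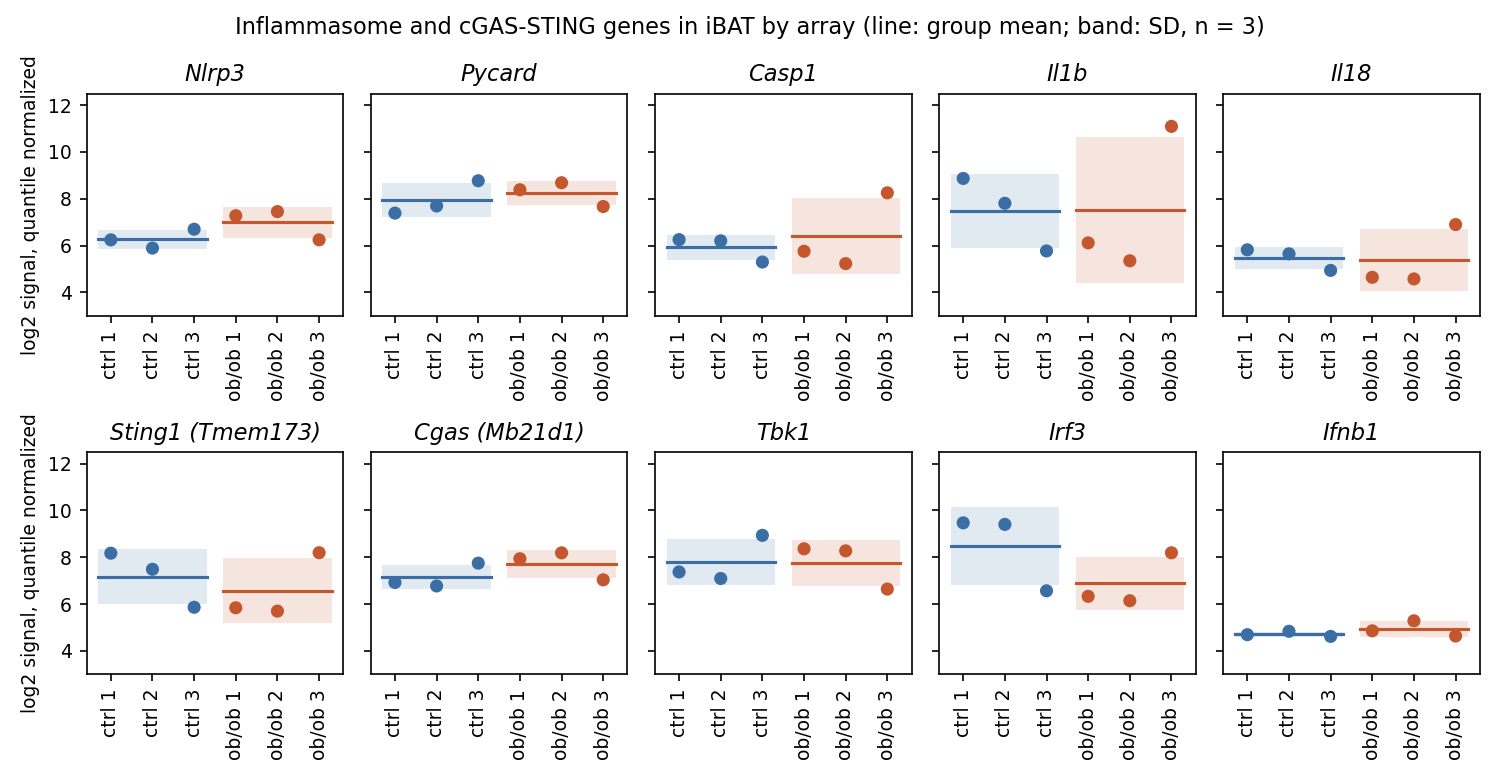
Log2 signal (y axis, quantile normalized) of each of the 10 genes, by the brightest probe, on the 6 arrays (x axis). Points are arrays (blue, control; orange, *ob/ob*), lines are group means, and bands are SD (n = 3). In all 10 panels the groups overlap, with *Il1b* ranging from 5.35 to 11.09 within the *ob/ob* samples and *Ifnb1* between 4.62 and 5.29 over all arrays. Heights in different panels come from different probes and are not comparable between genes.

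In this comparison, no gene of the 10 passed an adjusted p under 0.05 in limma, and neither did any of the 19011 genes tested (0%). At an unadjusted p under 0.05, the count was 0 of 10 by limma and 0 by the methods' t-test, against 710 of all genes (3.73%) by limma. With a 2-fold difference as well it was 0 of 10, against 607 of all genes (3.19%). In 0 of the 10 genes, and on 0 of the 13 probes, were the 3 samples of a label separated from the other 3, compared with 1521 of all genes (8.0%). With 10 genes, counts of 0 lie near these background shares. The lowest unadjusted p among the members was 0.147, that of *Irf3*, which was also the only gene with a mean difference of 2-fold or more. The means were higher in *ob/ob* samples for 6 genes and lower for 4, with a median log2 difference of 0.12, beside −0.09 over all genes. In every one of the 10, the range within a group was wider than the difference between the group means. Over the 6 arrays, the median range of a member was 2.31 log2 units, against 1.80 for all genes.

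Because control 3 and *ob/ob* 3 were unlike their labels, the differences were also computed from control 1 and 2 against *ob/ob* 1 and 2. The arrays were left out because of their values, and 49.3% of all 19011 genes then passed an adjusted p under 0.05 in limma, so the members' count of 9 of 10, all but *Ifnb1*, is a description of these 4 arrays. The log2 differences were 1.30 for *Nlrp3*, 0.99 for *Pycard*, 1.22 for *Cgas*, and 1.08 for *Tbk1*, all higher on the *ob/ob* arrays. They were −0.74 for *Casp1*, −2.61 for *Il1b*, −1.12 for *Il18*, −2.06 for *Sting1*, and −3.20 for *Irf3*, all lower on the *ob/ob* arrays. These count and values are of the brightest probe of each gene. The dimmer *Nlrp3* probe had 0.21, and the other *Cgas* probes had 0.61 and 0.10. Their adjusted p values in limma were 0.509, 0.0569, and 0.757. Thus, by the brightest probes, the sensor, ASC, and kinase genes ran one way, and the caspase, cytokine, STING, and IRF3 genes the other. *Casp1*, *Il1b*, and *Tbk1* had the opposite sign with all 6 arrays, and the difference for *Ifnb1* was 0.31.

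Arrays were also compared within a scan. Control 1, control 3, and *ob/ob* 1 were read in the same scan, and the other arrays in scans of their own. Within the shared scan, the log2 difference was 0.80 for *Nlrp3*, 0.31 for *Pycard*, 0.60 for *Cgas*, 0.21 for *Tbk1*, and 0.20 for *Ifnb1*. It was −0.02 for *Casp1*, −1.20 for *Il1b*, −0.74 for *Il18*, −1.18 for *Sting1*, and −1.69 for *Irf3*. These values rest on 1 *ob/ob* array against 2 control arrays.

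**Figure D2:**
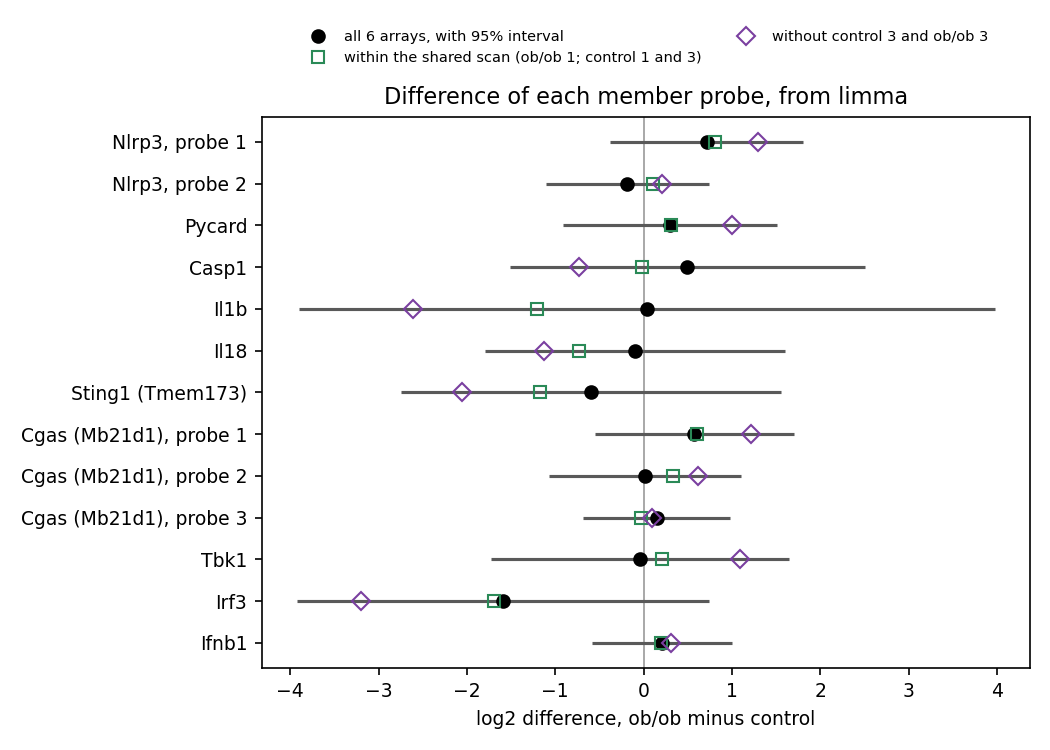
Log2 difference, *ob/ob* minus control (x axis), of the 13 probes (y axis) with all 6 arrays (dots, with 95% intervals), within the shared scan (squares), and without control 3 and *ob/ob* 3 (diamonds). All 13 intervals include 0. The diamonds lie away from the dots for most probes, for example at −2.61 against 0.04 for *Il1b* and at −3.20 against −1.59 for *Irf3*.

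Centered on its own mean, each gene showed which arrays were high. *Casp1*, *Il1b*, *Il18*, *Sting1*, and *Irf3* were above their mean on control 1, control 2, and *ob/ob* 3 and below it on control 3, *ob/ob* 1, and *ob/ob* 2. *Pycard*, *Cgas*, and *Tbk1* had the converse signs on all 6 arrays, and so did the brighter probe of *Nlrp3*. These arrays are the sets that the correlations over the tested probes had shown, so the sharing of a profile is not particular to the 10 genes.

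Markers of other cells also moved with these arrays. *S100a8*, an abundant gene of neutrophils, had log2 signals of 7.59, 6.88, and 4.53 in controls and 5.35, 4.74, and 10.69 in *ob/ob* samples, with *ob/ob* 3 highest and control 1 next, as for *Il1b*. *S100a9*, its partner, had 8.64, 7.88, and 6.02 in controls and 6.43, 6.38, and 11.94 in *ob/ob* samples. The profile was not that of the whole neutrophil list, since *Elane*, a neutrophil protease gene, was lowest on *ob/ob* 3 at 9.87. The list was tested for 8 of 9 genes, not including *Ly6g*, and 0 of them passed an adjusted p under 0.05, and its summed level was 12.17 to 12.98 in controls and 12.15 to 12.78 in *ob/ob* samples on the log2 scale, a sum to which *Elane* gave the most on every array but *ob/ob* 3, where *S100a9* was brighter. Over its genes, 5 of 8 had a higher mean in *ob/ob* samples, with a median log2 difference of 0.54, which was −0.26 within the shared scan. Of 12 macrophage genes, 11 were tested, not including *Cd68*, and 0 passed an adjusted p under 0.05. The macrophage gene *Adgre1* had a log2 difference of −0.21. *Trem2*, which encodes a receptor of lipid-laden macrophages, had 4.88, 4.97, and 5.37 in controls and 7.18, 6.26, and 8.53 in *ob/ob* samples, and *C1qa*, a complement gene of macrophages, had 5.73, 5.86, and 6.23 against 6.70, 6.5, and 7.32. Their groups did not overlap, with unadjusted p values of 0.00919 and 0.0467 from limma and adjusted p values of 1.0. Over the macrophage list, 7 of 11 genes had a higher mean in *ob/ob* samples, with a median log2 difference of 0.53. Its summed level was 12.34 to 13.94 in controls and 11.93 to 12.51 in *ob/ob* samples, a sum that includes the bright *Itgam* (log2 difference −1.43 ± 0.72, SE). All 8 brown adipocyte genes had a lower mean in *ob/ob* samples, with a median log2 difference of −2.28. Of these, *Ppargc1a*, a coactivator of mitochondrial genes, had 10.06, 9.99, and 7.59 in controls and 5.81, 5.53, and 7.58 in *ob/ob* samples. Its log2 difference was −2.91 ± 0.87 (SE), but control 3 and *ob/ob* 3 were nearly equal. *Cpt1b*, a carnitine acyltransferase, had −1.67 ± 0.50 (SE) without overlap. Both were named for their unadjusted p values from limma (0.0144 and 0.0148), and neither passed an adjusted p under 0.05. *Elovl3*, a fatty acid elongase, was not well above background on any *ob/ob* array and was at least 15.8-fold lower there than in controls, taking the higher of its own signal and the lowest detected signal of each array. The medians of the other lists were −0.02 for shared adipocyte genes, −0.10 for lymphocyte genes, and −1.08 for endothelial genes. The B cell gene *Ms4a1* had a log2 difference of 1.16 ± 0.36 (SE), also without overlap. Of the 8 skeletal muscle genes, 7 had a lower mean in *ob/ob* samples, with a median log2 difference of −1.84. The exception, *Mylpf*, had 1.19 ± 0.44 (SE) without overlap and was detected on 2 of 3 control arrays. The skeletal muscle list had a summed level of 15.52, 16.02, and 12.36 in controls and 9.80, 9.49, and 16.82 in *ob/ob* samples, and the erythrocyte list one of 13.61, 11.77, and 10.43 against 9.75, 9.57, and 14.97. Both were highest on *ob/ob* 3, control 1, and control 2. The part of these markers in the values of the 10 genes was not tested.

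**Figure D3:**
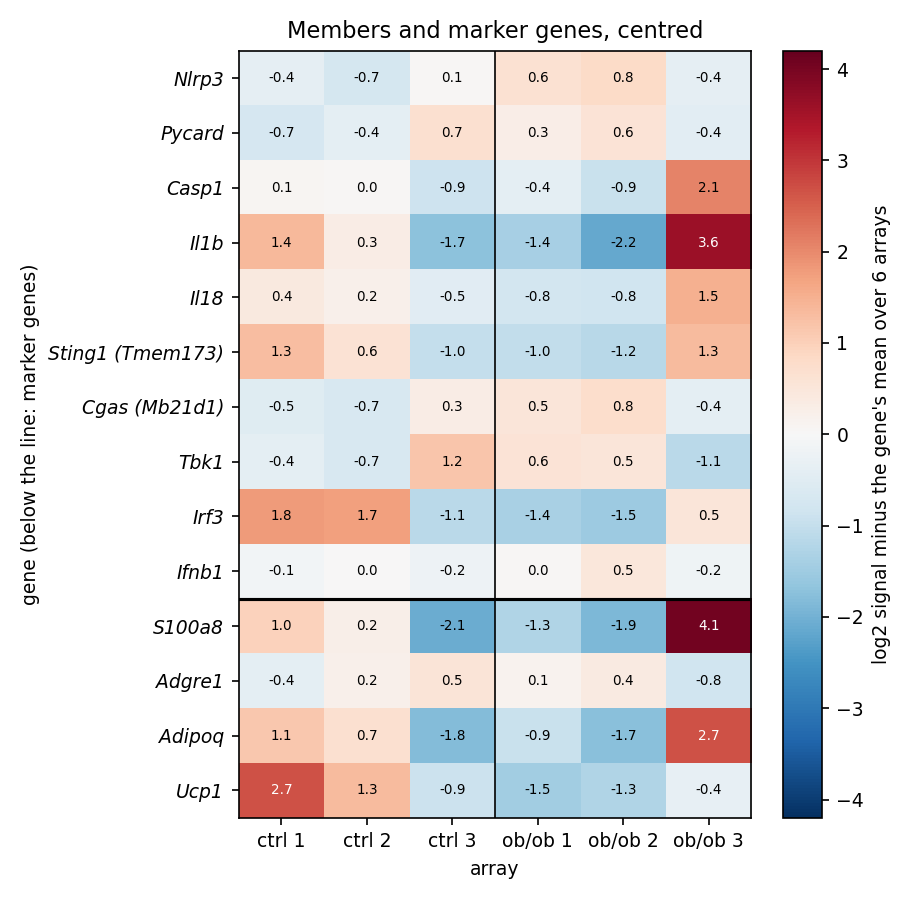
Log2 signal of the 10 genes and, below the line, 4 marker genes (rows) on the 6 arrays (columns), each minus the gene's mean over the arrays. Red is above and blue below the mean. *Il1b* and *S100a8* are both highest on *ob/ob* 3 and next highest on control 1, and *Nlrp3*, *Pycard*, *Cgas*, and *Tbk1* are highest on control 3, *ob/ob* 1, or *ob/ob* 2.

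The genes whose centered profile was nearest to the brighter *Nlrp3* probe were sought over the 6 arrays, by the root mean square difference among 7801 genes of like spread. They were *Card14* (0.050 log2 units), *Olfr996* (0.051), *Olfr67* (0.057), *Slc28a3* (0.062), and *Arhgef19* (0.062). *Card14* had log2 signals of 6.09, 5.80, and 6.58 in controls and 7.22, 7.46, and 6.19 in *ob/ob* samples. *Olfr996* and *Olfr67* encode odorant receptors, which are known from the nose. Chosen after these values were seen, the odorant receptor genes were counted: they were 13 of the nearest 100 genes and 489 of the 7801 candidates (6.27%). Their median, centered, was 0.44 on control 3, 0.21 on *ob/ob* 1, and 0.42 on *ob/ob* 2, but −0.21, −0.07, and −0.73 on control 1, control 2, and *ob/ob* 3, so that *Nlrp3* had their sign on all 6 arrays.

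The other genes of these pathways were described by lists. Of 21 further inflammasome genes, 19 were tested, 12 with a higher and 7 with a lower mean in *ob/ob* samples, and 0 passed an unadjusted p under 0.05. Their median log2 difference was 0.11, or −0.001 with normexp background correction. *Aim2*, a sensor of DNA in the cytosol, had 4.63, 4.31, and 6.25 in controls and 5.81, 5.84, and 5.70 in *ob/ob* samples, and *Panx1*, a channel that releases ATP, had a log2 difference of 0.38 ± 0.32 (SE). *Txnip*, the thioredoxin-binding protein that can engage NLRP3, had −0.46 ± 0.40 (SE), and *Nlrp12* had −0.39 ± 0.34 (SE).

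In the IL-1 family, 12 of 14 genes were tested, with a median log2 difference of 0.03, or −0.28 with scaling to the 75th percentile. *Il1rl1*, the receptor of IL-33, had log2 signals of 6.70, 6.13, and 7.51 in controls and 7.91, 8.30, and 8.42 in *ob/ob* samples, so that the groups did not overlap. Its log2 difference was 1.43 ± 0.44 (SE), with an unadjusted p of 0.0171 and an adjusted p of 1.0 from limma. It was the only gene of the list with an unadjusted p under 0.05. *Myd88*, the adaptor shared by IL-1 and Toll-like receptors, had a log2 difference of 0.57 ± 0.56 (SE), and *Il18r1*, the IL-18 receptor, −0.69 ± 0.41 (SE). *Irak1*, a kinase downstream of MyD88, had −0.29 ± 0.33 (SE).

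Of 17 genes of priming, by which Toll-like receptors and NF-κB raise *Nlrp3* and *Il1b*, 16 were tested, with a median log2 difference of 0.21. *Traf6*, a ubiquitin ligase of these receptors, had 5.06, 4.88, and 5.35 in controls and 6.17, 5.49, and 6.57 in *ob/ob* samples, without overlap. Its log2 difference was 0.98 ± 0.39 (SE), with an unadjusted p of 0.0452 and an adjusted p of 1.0 from limma. *Nfkbia*, the inhibitor of NF-κB, had −0.80 ± 0.66 (SE), *Rela* −0.40 ± 1.11 (SE), and *Relb* 0.71 ± 0.64 (SE). The 7 mitochondrial genes listed as tied to the release of mitochondrial DNA had a median log2 difference of 0.13, which was −1.01 without control 3 and *ob/ob* 3. Among them, the outer membrane channels *Vdac1* and *Vdac2* had 0.41 ± 0.88 and 0.42 ± 1.23 (SE), and *Ppif*, the gene of cyclophilin D, had −0.31 ± 0.53 (SE). *Bak1*, a pore former of the outer membrane, had −0.14 ± 0.56 (SE).

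All 22 genes of other nucleic acid sensing were tested, 9 with a higher and 13 with a lower mean in *ob/ob* samples, and a median log2 difference of −0.10. *Nlrc3*, known as an inhibitor of STING, had log2 signals of 10.43, 10.87, and 10.54 in controls and 9.45, 9.56, and 8.14 in *ob/ob* samples. No *ob/ob* sample reached the lowest control, and the log2 difference was −1.56 ± 0.47 (SE), with an unadjusted p of 0.0152 and an adjusted p of 1.0 from limma. *Trim56*, a ubiquitin ligase that acts on STING, had a log2 difference of −1.74 ± 0.78 (SE), and *Tbkbp1*, a binding partner of TBK1, −1.81 ± 0.94 (SE). The RNA sensor gene *Ddx58* had 0.63 ± 0.47 (SE), and *Zbp1* 0.42 ± 0.77 (SE).

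Of 14 further type I interferon genes, 11 were tested, 10 of them with a lower mean in *ob/ob* samples and 1, *Ifna12*, with a higher mean. Their median log2 difference was −0.36 with all 6 arrays and 0.36 without control 3 and *ob/ob* 3, and 0.09 within the shared scan. *Ifna11* had 8.76, 9.32, and 11.46 in controls and 10.26, 10.37, and 6.70 in *ob/ob* samples. The log2 difference was 0.47 ± 0.84 (SE) for *Ifna12*, −0.16 ± 0.57 (SE) for *Ifna2*, and −0.79 ± 0.69 (SE) for *Ifna14*. The *Ifna* genes are near-identical copies, and their probes may share signal. Of 22 interferon receptors and interferon-stimulated genes, 18 were tested, 5 with a higher and 13 with a lower mean, and the median log2 difference was −0.25. *Stat2*, which with *Irf9* forms the factor that answers interferon, had 9.55, 9.31, and 5.58 in controls and 5.36, 5.0, and 8.91 in *ob/ob* samples. Its log2 difference was −1.73 ± 1.45 (SE), that of *Irf9* was 0.62 ± 0.45 (SE), and that of *Irf1* was −1.56 ± 1.20 (SE). *Rtp4*, an interferon-stimulated gene, had 0.47 ± 0.47 (SE). No gene of either list passed an unadjusted p under 0.05.

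**Figure D4:**
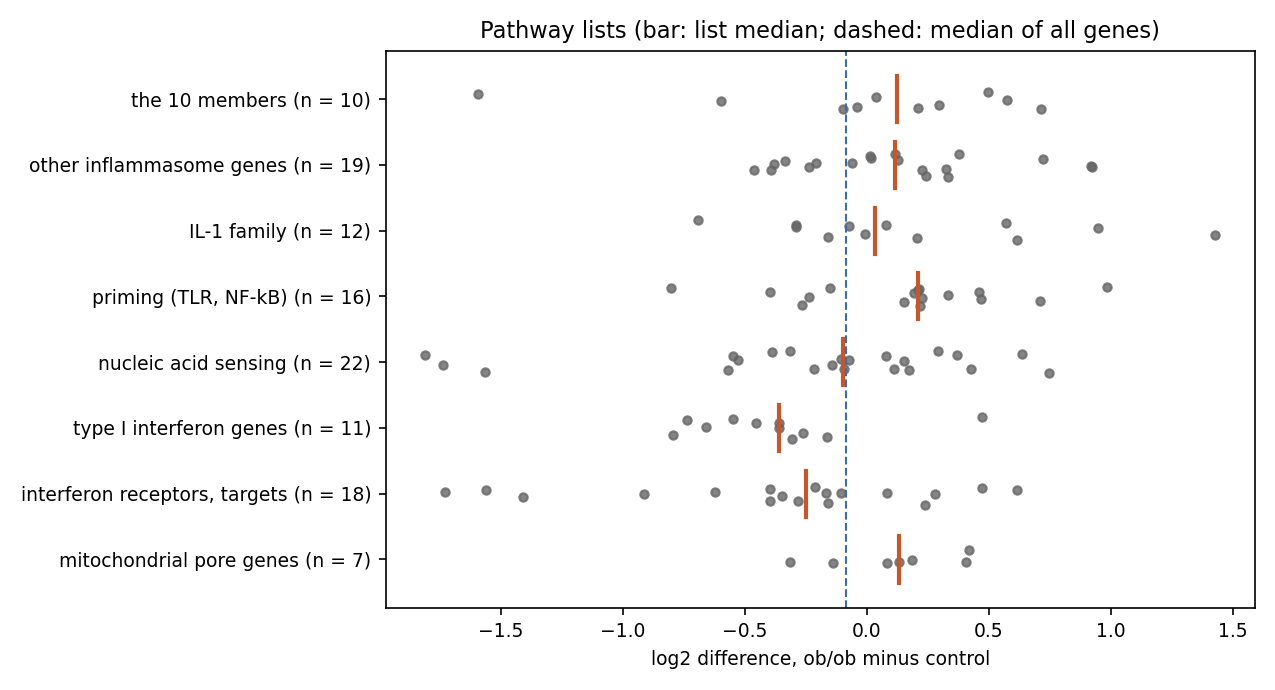
Log2 difference, *ob/ob* minus control (x axis), of each tested gene of the 10 members and of 7 pathway lists (rows; points are genes, spread vertically at random). Orange bars are list medians, and the dashed line is the median of all genes tested, at −0.09. List medians lie between −0.36 (type I interferon genes) and 0.21 (priming), within the spread of the genes of each list.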

How the data were processed

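Total RNA of iBAT from 3 control and 3 *ob/ob* mice was hybridized to 6 single-color Agilent arrays. The authors deposited, per the file headers, the intensity of each spot from Feature Extraction (version 11.0.1.1), background-corrected within the array, and a table of log2 values quantile normalized with GeneSpring. The scanner intensities were used, averaged over the spots of a probe on the log2 scale and quantile normalized. Control spots and spots with an outlier flag were left out. The authors' log2 table served as an alternative, and each column matched its array's scanner intensities (r = 0.987 to 0.998). RefSeq accessions marked 28684 probes, and the annotation of GRCm38.p6, used for names and promoters, gave a symbol to 27234 of them. Array coordinates are of another build and are not given.

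Probes well above background on at least 3 of 6 arrays (35448) were tested with limma (version 3.58.1, R 4.3.3), with p values adjusted over all probes by the Benjamini-Hochberg method, and genes were counted by their brightest probe. The code was tested on simulated data. Members and lists were chosen with earlier results of these data known. Named genes are all members, genes of each list with an unadjusted p under 0.05 or among the 2 highest and 2 lowest differences of genes detected on all arrays, and a few checks. Of the marker lists the extremes are given as counts and levels. Arrays carry no counts, so their number limits the precision. Alternatives were another scaling, normexp (offset 50, on the median spot signal), the authors' values, 3 other detection filters, the methods' t-test, limma with trend and robust estimation, the replicate number or the scan as a block, each array left out, control 3 and *ob/ob* 3 left out, and the mean of a gene's probes.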

Additional observations from a re-analysis of the deposited data

How the results depend on the processing

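No member passed an adjusted p under 0.05 under 17 of the 18 alternatives, the exception being 9 without control 3 and *ob/ob* 3. Past an unadjusted p under 0.05 with a 2-fold difference there were 0 members with all arrays, 7 without both, and from 0 to 1 with each array left out in turn, the 1 being *Irf3* without control 3 (log2 difference −2.55) and *Nlrp3* without *ob/ob* 3 (1.09). The members' median log2 difference, 0.12, was −0.21 without both. By the brightest probe, or the mean of a gene's probes, the sign of *Nlrp3*, *Pycard*, *Cgas*, *Sting1*, and *Irf3* held under all 18 alternatives, but their size did not: with each array left out in turn they ranged from 0.48 to 1.09, 0.015 to 0.71, 0.34 to 0.91, −1.40 to −0.10, and −2.55 to −1.10, in that order. Other probes did not all share the sign. The dimmer *Nlrp3* probe had −0.19 with all arrays, and the dimmest *Cgas* probe −0.03 with the scan as a block. With the scan as a block, *Casp1* was −0.019, *Il1b* −1.20, and *Tbk1* 0.21, and without both they were −0.74, −2.61, and 1.08. With each array left out in turn, *Casp1* ranged from −0.42 to 1.09, *Il1b* from −1.75 to 1.12, *Il18* from −0.86 to 0.30, and *Tbk1* from −0.40 to 0.53. *Il18* was 0.0075 with normexp, and *Ifnb1* −0.23 with scaling to the 75th percentile. The cause of these changes was not tested.

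Over all probes, 0 passed an adjusted p under 0.05, 1 with limma's trend and robust options, and 16259 without both. Past an unadjusted p under 0.05 and 2-fold, 598 probes were higher and 478 lower. The counts were 115 and 303 with scaling to the 75th percentile, 128 and 310 with normexp, 327 and 313 with the methods' t-test, 35 and 113 with the scan as a block, and 5869 and 6789 without both. With detection on all 6 arrays, 394 were higher. With each array left out they ranged from 112 to 1762 higher and from 173 to 1170 lower, the highest without control 3 and 1685 and 1029 without *ob/ob* 3. With the replicate number as a block, 139 were higher and 220 lower. Same-numbered samples deviated from their group means in opposite directions (correlations −0.781, −0.658, and −0.850). Because control 3 and *ob/ob* 3 were each unlike their label, such signs can arise with or without pairing. These correlations therefore cannot show whether the numbers pair the samples. No member passed an adjusted p under 0.05 with the replicate number as a block. Leave-outs kept the normalization and filter of the 6 arrays.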
